A study of Arabidopsis thaliana with 6 samples.

Results

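Flowering time in Arabidopsis thaliana is set in the leaf by a small circuit of repressors and inducers, and 10 of its genes were followed here: the repressor FLC and its clade members MAF1 (also called FLM), MAF2, MAF3, MAF4 and MAF5, the repressor SVP, the florigens FT and TSF, and the integrator SOC1. They were chosen by locus identifier from this circuit, 10 of the 27655 gene loci in the tables, and all 10 were present. The leaf RNA compared was from plants labelled jmj16 (allele jmj16-1, the insertion line SAIL_535_F09) and from wild type Col-0, the background of the mutant, with 1 RNA-seq library for each genotype. JMJ16 is a demethylase of lysine 4 of histone H3 that the series title ties to leaf senescence. Both groups were fully expanded leaves 5 and 6 with no visible yellowing. Seeds of both had 3 days of cold, 6 days on plates and then soil in a room at 22 °C, where days had 16 h light and nights 8 h. The labels give the age as 4 weeks in one field and as 5 weeks in another. How many plants were pooled for a library is not given in the sources used here, and the mutant is a single insertion allele. The series has 6 samples, and its 4 chromatin immunoprecipitation samples were not analysed here.

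FLC encodes a MADS-box transcription factor that delays flowering by binding FT and SOC1, and prolonged cold shuts it off through Polycomb proteins. The MAF genes encode close relatives of FLC that also delay flowering, and SVP encodes a MADS-box partner of FLC and of MAF1 in the same repressor complexes. FT and TSF encode small proteins made in phloem companion cells of the leaf in long days. FT protein moves to the shoot apex, where it acts with FD to switch on SOC1 and then the floral meristem genes. Active marks on lysine 4 of histone H3 are part of how FLC and FT are kept transcribed.

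The jmj16-labelled library held 13844284 estimated counts and the wild type library 10643186. The 17151 genes with 20 or more reads over the pair of libraries are the measured genes. Of these, a gene counted as higher or lower where its scaled counts differed at least 2-fold and the 95% counting interval of the ratio did not include equality. By that rule 1239 genes (7.22%) were higher and 1825 (10.6%) lower in the jmj16-labelled library. All intervals cover counting error only, since each genotype had 1 library, so differences could not be set against a spread between replicates and there are no p-values. JMJ16 itself (AT1G08620) had 168 estimated counts in the jmj16-labelled library and 188 in wild type, 1.55-fold lower (95% counting interval 1.25 to 1.92), which does not check the label: sequence outside an insertion can still be read. Longer transcripts had lower ratios. The median log2 ratio was 0.38 in the tenth of measured genes with the shortest transcripts and -0.86 in the tenth with the longest. Values after subtracting this trend are given where they matter, but not for summed reads, single transcript models or flanking genes. For JMJ16, a log2 ratio of -0.63 turned to 0.37.

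Of the 10 flowering genes, TSF was called higher, FLC was called lower and the other 8 were called neither. That is 2 of 10 genes, against 17.9% of all measured genes called in either direction, so the number called was close to the background. Both called genes were thinly read. Among all 802 measured genes with 20 to 29 reads over both libraries, 13.7% were higher and 18.0% lower. The median log2 ratio was 0.27 over the 10 genes and 0.02 over all measured genes, and after subtracting the length trend it was -0.07 and 0.01. The most read transcript models of these genes were short, from 354 to 1431 nt with a median of 878.5 nt, against a median of 1628 nt over all measured genes.

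**Figure D1:**
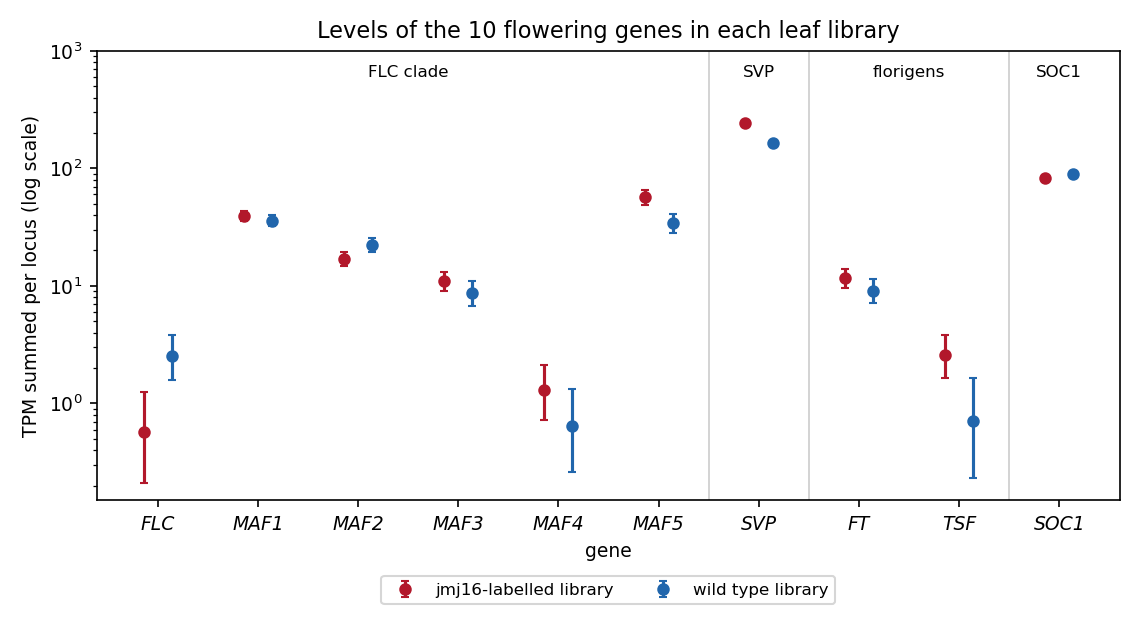
Level of each of the 10 genes in the jmj16-labelled library (red, left) and the wild type library (blue, right), as TPM summed over the transcripts of a locus on a log scale, with 95% Poisson intervals of the reads as bars (counting error only; 1 library per genotype). SVP and SOC1 stand highest in both libraries, and FLC, TSF and MAF4 are the 3 lowest.

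Levels per transcript length, as TPM (transcript abundance scaled to the library), spanned more than 2 orders of magnitude within each library. In the jmj16-labelled library the order was SVP, SOC1, MAF5, MAF1, MAF2, FT, MAF3, TSF, MAF4 and FLC. In wild type it was SVP, SOC1, MAF1, MAF5, MAF2, FT, MAF3, FLC, TSF and MAF4. SVP, at 243 and 164 TPM, was above 98.0% of loci in the jmj16-labelled library and above 97.4% in wild type. FT and MAF3, next to each other in both orders, did not differ beyond their counting intervals in either library. MAF1 and MAF5 did not differ beyond theirs in wild type. Among the 3 lowest genes, no neighbours in the order had intervals that were apart in either library. FLC came last in the jmj16-labelled library and eighth in wild type, while TSF was eighth in the jmj16-labelled library and ninth in wild type.

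**Figure D2:**
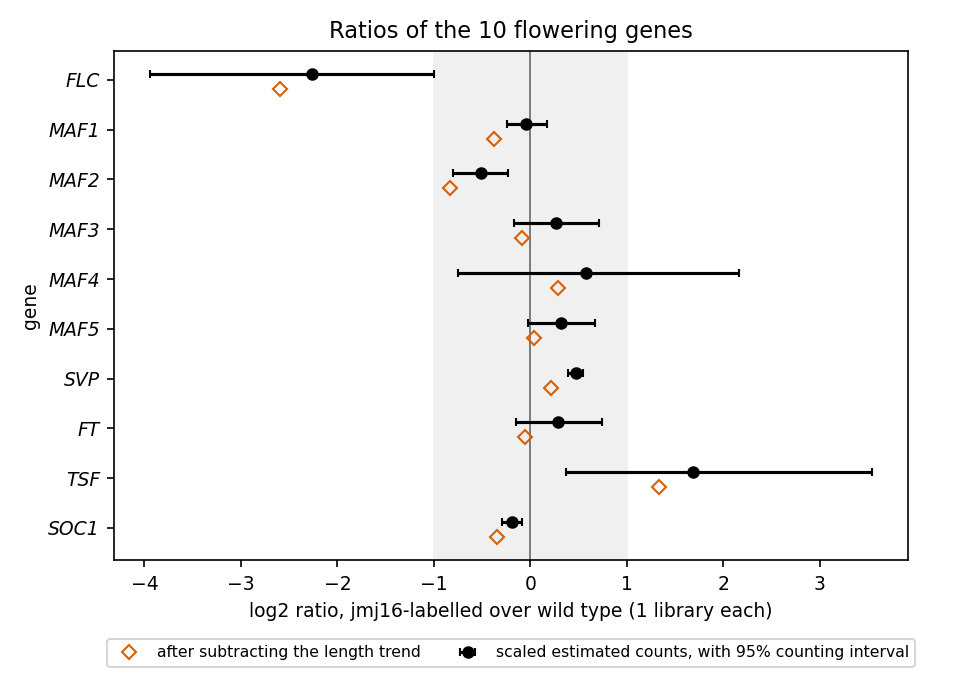
Log2 ratio (jmj16-labelled over wild type) for the 10 genes, in the order of their roles, as scaled counts with 95% counting intervals (black circles) and after subtracting the trend with transcript length (open orange diamonds). The shaded band marks differences under 2-fold. The FLC and TSF points lie outside the band, and the other 8 lie inside it on both scales.

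FLC (AT5G10140) was the one member called lower. It had 6 reads in the jmj16-labelled library (95% Poisson interval 2.20 to 13.1) and 22 reads in wild type (13.8 to 33.3), or 0.573 and 2.52 TPM. On the TPM scale the intervals, 0.210 to 1.25 in the jmj16-labelled library and 1.58 to 3.82 in wild type, were apart. Scaled for depth, FLC was 4.80-fold lower in the jmj16-labelled library (2.0 to 15.3), a log2 ratio of -2.26, and after subtracting the length trend -2.59. Of measured genes at all read depths, 1.05% fell below -2.26. Among those with 20 to 29 reads over both libraries, as FLC had, 18.0% were called lower. All 6 reads of the jmj16-labelled library went to the model AT5G10140.4. In wild type AT5G10140.4 took 10.1 reads, AT5G10140.2 took 6.89 and AT5G10140.1 took 5.05. From AT5G10140.4 alone the log2 ratio was -1.16, with an interval from -2.95 to 0.39, so the call rests on the other models being unread in the jmj16-labelled library. A long noncoding RNA locus, AT5G01675, overlaps FLC in the RefSeq gene table. It has no row in the tables used here and the strand setting of the counting is not given, so its reads cannot be told apart from those of FLC.

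None of the other members of the FLC clade was called, and all but MAF4 were read far more deeply than FLC. MAF1 (AT1G77080), a repressor that takes part in the response to ambient temperature, had 452 estimated counts in the jmj16-labelled library (411 to 496) and 335 in wild type (300 to 373), or 39.4 and 35.9 TPM. The log2 ratio of MAF1 was -0.04 (-0.25 to 0.17), no difference beyond counting error. After subtracting the length trend it was -0.37 (-0.58 to -0.16), below 0 beyond counting error and within 2-fold. MAF2 (AT5G65050), known for keeping short cold spells from triggering flowering, had 201 counts in the jmj16-labelled library and 207 in wild type, or 17.0 and 22.5 TPM. Its log2 ratio of -0.51 (-0.80 to -0.23) lay below 0 beyond counting error but within 2-fold, and after subtracting the length trend it was -0.83.

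MAF3 (AT5G65060), also a repressor, had 120 counts in the jmj16-labelled library and 72.3 in wild type, or 11.0 and 8.70 TPM. Its log2 ratio was 0.26 (-0.17 to 0.71), and -0.08 after subtracting the length trend. MAF4 (AT5G65070), another repressor of the clade, was nearly unread, with 15.2 counts in the jmj16-labelled library and 7 in wild type, or 1.30 and 0.648 TPM. Its log2 ratio of 0.58 had an interval from -0.75 to 2.16, so even a 2-fold higher level was not detectable at this depth. After subtracting the length trend the ratio was 0.28. MAF5 (AT5G65080), the last of the tandem genes, had 194 counts in the jmj16-labelled library and 112 in wild type. The log2 ratio of MAF5 was 0.32 (-0.02 to 0.67), and 0.04 after subtracting the length trend. Its TPM of 56.9 in the jmj16-labelled library and 34.1 in wild type came mostly from AT5G65080.1, a model of 354 nt that held 83.1% and 73.0% of the TPM of the locus. Without this model MAF5 had 9.58 TPM in the jmj16-labelled library and 9.20 in wild type, with a log2 ratio of 0.03 (-0.40 to 0.47), and it would stand below MAF2 in both orders of levels.

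MAF2, MAF3, MAF4 and MAF5 lie next to each other in the RefSeq gene table, and near-identical paralogs share reads that the counting divides among them. The deposited values show where this happened. Estimated counts of MAF1, MAF2 and MAF3 were not whole numbers in either library, but together they came to 772 reads in the jmj16-labelled library and 614 in wild type, both whole within 0.01 of a read, while MAF2 with MAF3 alone or MAF1 with MAF2 alone did not. Summed over these 3 genes, the log2 ratio was -0.14 (-0.30 to 0.01), without subtracting the length trend of 0.32 (MAF2) to 0.35 (MAF3). Even 0.32 is larger than the upper end of the interval, so subtracting it would put the sum below 0 beyond counting error. Because reads were divided among them, the single ratios of MAF1, MAF2 and MAF3 are less certain than their sum. In the jmj16-labelled library MAF4 and MAF5 were whole only as their sum of 209 reads, while each alone was whole in wild type. FLC, SVP, FT, TSF and SOC1 had whole counts in both.

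Summed over the 6 loci of the clade, 987 reads in the jmj16-labelled library stood against 755 in wild type, a log2 ratio of -0.09 (-0.22 to 0.05). The length trend was not subtracted from this sum. At the 6 loci it ran from 0.28 (MAF5) to 0.35 (MAF3), so subtracting it would lower the ratio. Even 0.28 is larger than the upper end of the interval, so the sum would then lie below 0 beyond counting error. FLC itself was a small part of that pool. It took 0.608% of the clade's reads in the jmj16-labelled library (exact binomial 95% interval 0.223 to 1.32) and 2.91% in wild type (1.83 to 4.38). MAF1 was the most read member of the clade, with 45.7% of the clade's reads in the jmj16-labelled library and 44.4% in wild type. MAF2 took 20.3% (17.9 to 23.0) in the jmj16-labelled library and 27.4% (24.3 to 30.7) in wild type, and MAF5 19.6% (17.2 to 22.3) and 14.8% (12.4 to 17.6). For FLC and MAF2 the 2 intervals were apart, and for MAF5 they overlapped. MAF1 and FLC were unlike in level in both libraries: MAF1 had 68.7 times the TPM of FLC in the jmj16-labelled library and 14.2 times in wild type.

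SVP (AT2G22540) was the most abundant of the 10 genes and had the most precise ratio. It had 3767 counts in the jmj16-labelled library (3648 to 3889) and 1960 in wild type (1874 to 2049), or 243 and 164 TPM. The log2 ratio was 0.47 (0.39 to 0.55), 1.39-fold higher (1.31 to 1.46), above 0 beyond counting error and within 2-fold. After subtracting the length trend it was 0.21.

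FT (AT1G65480) had 117 reads in the jmj16-labelled library (96.8 to 140) and 69 in wild type (53.7 to 87.3), or 11.7 and 9.12 TPM. The log2 ratio of FT was 0.29 (-0.15 to 0.74), not a difference beyond counting error, and -0.05 after subtracting the length trend. All of its reads in both libraries went to AT1G65480.1. TSF (AT4G20370), the close paralog of FT, was the member called higher. It had 24 reads in the jmj16-labelled library (15.4 to 35.7) and 5 in wild type (1.62 to 11.7), or 2.58 and 0.711 TPM. On the TPM scale the intervals, 1.66 to 3.85 in the jmj16-labelled library and 0.231 to 1.66 in wild type, met at their ends. Scaled for depth TSF was 3.21-fold higher (1.29 to 11.6), a log2 ratio of 1.68, and 1.33 after subtracting the length trend. The ratio of 1.68 was above 97.7% of measured genes at all read depths. Among those with 20 to 29 reads over both libraries, as TSF had, 13.7% were called higher. FT and TSF counts were whole numbers in both libraries, so no fraction of a read was divided between them.

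FT stood above TSF in both libraries, with 4.53 times its TPM in the jmj16-labelled library and 12.8 times in wild type. TSF made up 17.0% of the reads of the pair in the jmj16-labelled library (11.2 to 24.3) and 6.76% in wild type (2.23 to 15.1), and these intervals overlapped. Summed, the florigens had 141 reads in the jmj16-labelled library and 74 in wild type, with a log2 ratio of 0.45 (0.04 to 0.88). The length trend, 0.34 at FT and 0.35 at TSF, was not subtracted from this sum. It is larger than the lower end of the interval, so the sum is not above 0 beyond counting error on both scales. Whether the ratios of FT and TSF differ from each other was not tested.

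SOC1 (AT2G45660, listed as AGL20 in RefSeq), the MADS-box integrator that FT induces and that FLC and SVP repress, had 1619 counts in the jmj16-labelled library (1541 to 1700) and 1334 in wild type (1263 to 1408), or 82.9 and 90.0 TPM. SOC1 had a log2 ratio of -0.19 (-0.30 to -0.09), 1.14-fold lower and below 0 beyond counting error, and -0.34 after subtracting the length trend. SVP had 2.94 times the TPM of SOC1 in the jmj16-labelled library and 1.82 times in wild type.

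**Figure D3:**
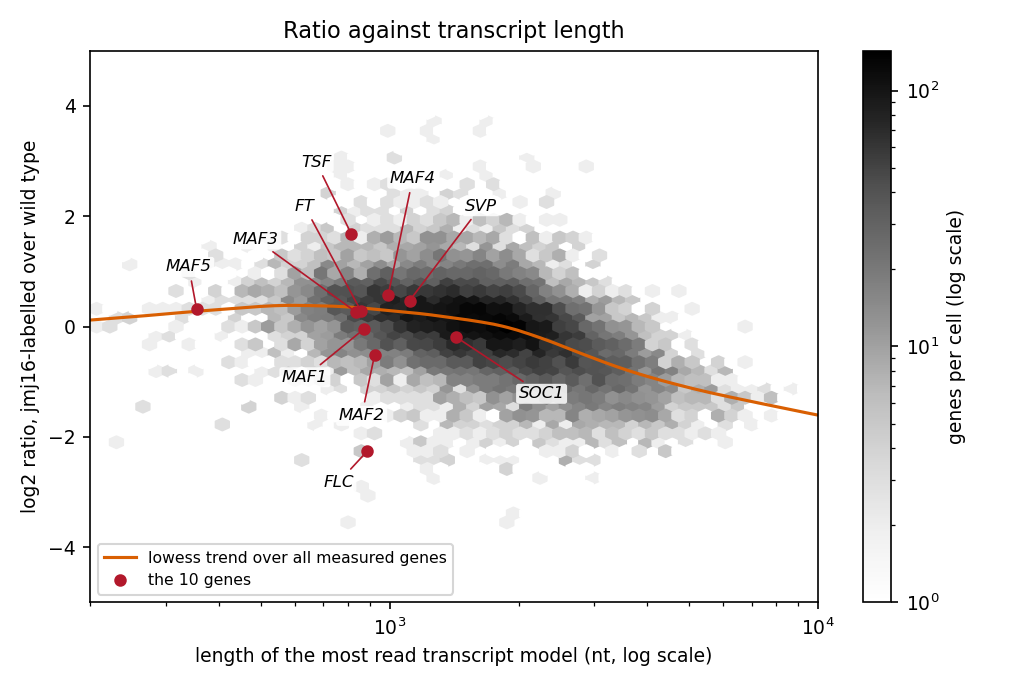
Log2 ratio (jmj16-labelled over wild type) against the length of the most read transcript model (log scale), with all measured genes within the axis range as grey cells shaded by number of genes on a log scale, their lowess trend as an orange line and the 10 genes as red points. FLC at -2.26 and TSF at 1.68 are far from the trend, while FT, MAF3 and MAF5 lie near it.

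Several of these genes are known to be alternatively spliced, and the tables list 40 transcript models for the 10 loci, of which 29 had at least 1 read over both libraries. How the counting divides reads among models is an estimate, and the intervals of the shares cover counting error only. Among the members with at least 100 reads and at least 2 read models, MAF2 showed the widest change in the share of its most read model. The model AT5G65050.1 took 66.2% of the locus reads in the jmj16-labelled library (59.2 to 72.7) and 34.3% in wild type (27.9 to 41.2), or 133 and 71.0 estimated counts. The 3 next models of MAF2 all had fewer counts in the jmj16-labelled library: AT5G65050.5 had 26.4 there and 57.9 in wild type, AT5G65050.3 had 25.5 and 46.8, and AT5G65050.2 had 9.09 and 25.5. From AT5G65050.1 alone the log2 ratio of MAF2 was 0.43 (0.01 to 0.87), the opposite sign to that of the whole locus. The length trend at MAF2, 0.32, was not subtracted here. It is larger than the lower end of the interval, so this ratio is not above 0 beyond counting error on both scales.

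MAF1 reads shifted among models as well. AT1G77080.2 took 48.2% of the locus reads in the jmj16-labelled library (43.3 to 52.7) and 40.8% in wild type (35.6 to 46.4). The second model, AT1G77080.4, took 41.5% (36.8 to 46.1) in the jmj16-labelled library and 32.3% (27.3 to 37.5) in wild type. Of the minor models, 3 had fewer counts in the jmj16-labelled library: AT1G77080.8 had 24.4 counts there and 42.6 in wild type, AT1G77080.11 had 8.46 and 28.7, and AT1G77080.10, a model of 3562 nt, had 6.43 and 16.0. AT1G77080.3 had more, 7.55 counts in the jmj16-labelled library and 2.76 in wild type. Shares of the first model overlapped in their intervals, and those of AT1G77080.8, at 5.39% (3.43 to 7.80) in the jmj16-labelled library and 12.7% (9.45 to 16.9) in wild type, did not.

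In the share of the most read model, SVP moved by 6.02 and SOC1 by 4.50 percentage points, less than MAF1 (7.31), MAF5 (13.0) and MAF2. MAF3, with far fewer reads than SVP and SOC1, moved by 4.44 points. SVP model AT2G22540.3 took 75.3% of reads in the jmj16-labelled library (73.8 to 76.6) and 69.2% in wild type (67.1 to 71.3), with AT2G22540.2 taking the rest. SOC1 model AT2G45660.1 took 90.2% in the jmj16-labelled library (88.7 to 91.6) and 85.7% in wild type (83.8 to 87.6). The intervals were apart for both genes.

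Shifts of this kind were common across the transcriptome. Of the 6 members with at least 2 read models and at least 100 reads, all 6 had a larger share for their most read model in the jmj16-labelled library, against 50.3% of 5992 loci of that kind. These 6 are not independent, since MAF1, MAF2 and MAF3 share reads, and the most read MAF5 model was close to a tie. A shift of at least 20 percentage points in either direction, which only MAF2 had (31.9 points), occurred at 26.2% of those loci. MAF2 was at the 93rd percentile of the signed shift and the other 5 were between the 65th and the 80th.

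**Figure D4:**
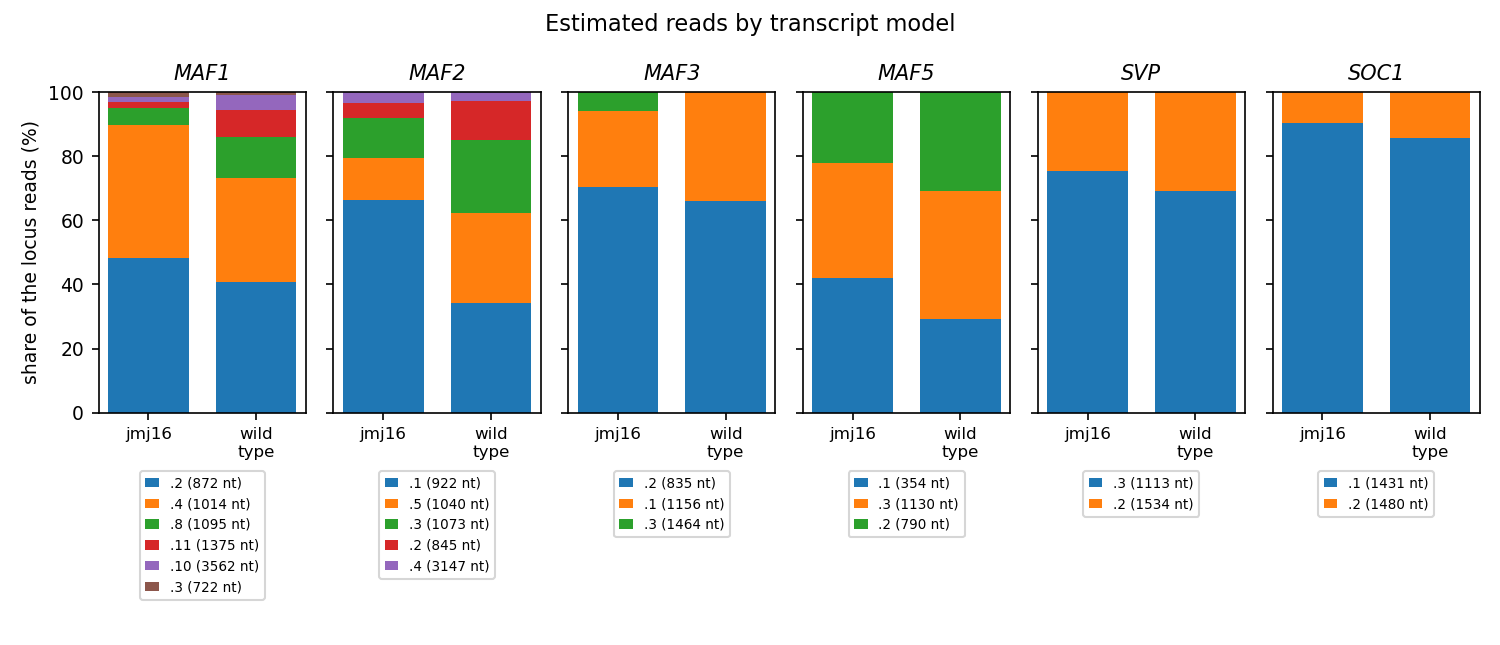
Share of the estimated reads of a locus that each transcript model took, in percent, in the jmj16-labelled library (left bar) and wild type (right bar), for the 6 members with at least 100 reads and at least 2 read models; colours are models in order of reads, with their lengths. The most read model of MAF2 held 66.2% in the jmj16-labelled library and 34.3% in wild type, and shifts in SVP and SOC1 were of a few percentage points.

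The regulators and targets of these genes were followed as 8 lists holding 78 loci, of which 62 were measured. Of these 3 were higher, 13 lower and 46 uncalled, where 7.22% of all measured genes were higher and 10.6% lower. The median log2 ratio was -0.36. After subtracting the length trend it was -0.17, and 3 were higher and 3 lower, where 6.24% of all measured genes were higher and 6.69% lower. The higher calls were all among repressors of FT. Of 7 measured repressors of the TEM and AP2-like families, 3 were higher, 4 were uncalled and 0 were lower. Their log2 ratios were above 0 for 5 and below 0 for 2. The list was chosen with earlier results of these data known. The median was 0.77, and 0.81 after subtracting the length trend, and the 3 called genes, TEM1, TEM2 and AP2, were called on both scales. TEM1 (AT1G25560), which binds FT and represses it, had 5144 counts in the jmj16-labelled library and 877 in wild type, or 207 and 46.6 TPM. It was 4.23-fold higher (3.94 to 4.55), with counts that were not whole, so that part of its reads fits other genes too. Its paralog TEM2 (AT1G68840) had 4485 counts in the jmj16-labelled library and 794 in wild type and was 4.07-fold higher (3.78 to 4.40). Counts of TEM2 were not whole either, and whether TEM1 and TEM2 share reads with each other was not tested. AP2 (AT4G36920), a floral organ identity gene that also delays flowering, had 614 counts in the jmj16-labelled library and 143 in wild type and was 3.09-fold higher (2.58 to 3.74). FT, which TEM1 and TEM2 repress, had a log2 ratio of 0.29 beside theirs of 2.08 and 2.03.

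Activators of FLC were lower in part. Of 20 measured genes of the FRIGIDA, Paf1 and SWR1 complexes, histone ubiquitination and methylation, 7 were lower, 13 were neither and 0 were higher, where 10.6% of all measured genes were lower. Their median log2 ratio was -0.35, against 0.02 over all measured genes. SDG8 (EFS, AT1G77300), a methyltransferase needed for FLC expression, had 36.5 counts in the jmj16-labelled library and 112 in wild type and was 4.16-fold lower (2.87 to 6.26). HUB2, a histone H2B ubiquitin ligase, was 3.68-fold lower (2.66 to 5.21), the Paf1 complex gene ELF8 2.96-fold (2.31 to 3.83) and the SWR1 complex gene PIE1 2.79-fold (1.90 to 4.21). The median length of this list was 2131 nt, and after subtracting the length trend 2 of 20 were lower, HUB2 and VIP4, where 6.69% of all measured genes were. The median was then -0.26. FRI, the scaffold of the FRIGIDA complex, which carries a known loss-of-function allele in Col-0, had 101 counts in the jmj16-labelled library and 80.8 in wild type and a log2 ratio of -0.15 (-0.59 to 0.29).

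Repressors of FLC were mostly uncalled. Of 7 autonomous pathway genes 1 was lower, 6 were uncalled and 0 were higher, where 10.6% of all measured genes were lower. The median was -0.38, or 0.12 after subtracting the length trend. The lower one was LD, a homeodomain protein gene, at 2.39-fold (1.66 to 3.50), and it was not called after subtracting the length trend. FPA, an RNA-binding protein gene, had a log2 ratio of -0.38 (-0.60 to -0.16), which turned to 0.12 after subtracting the trend. FVE, a histone-binding protein gene, had a log2 ratio of -0.61 (-0.84 to -0.38), and -0.44 after subtracting the trend. Of 12 measured Polycomb and vernalization genes 2 were lower, 10 were uncalled and 0 were higher, beside the same 10.6%. The median was -0.32, or -0.02 after subtracting the length trend. SWN, a methyltransferase of the Polycomb complex, was 3.87-fold lower (2.95 to 5.17) and EMF1 3.14-fold lower (2.25 to 4.50), and SWN alone was called after subtracting the length trend. VIN3, which cold induces and which starts the silencing of FLC, had 0 reads in the jmj16-labelled library and 19 in wild type. With 19 reads in all it missed the minimum and was not called. The 95% counting interval of its ratio began at 6.47-fold lower, and it was singled out after its values were seen.

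**Figure D5:**
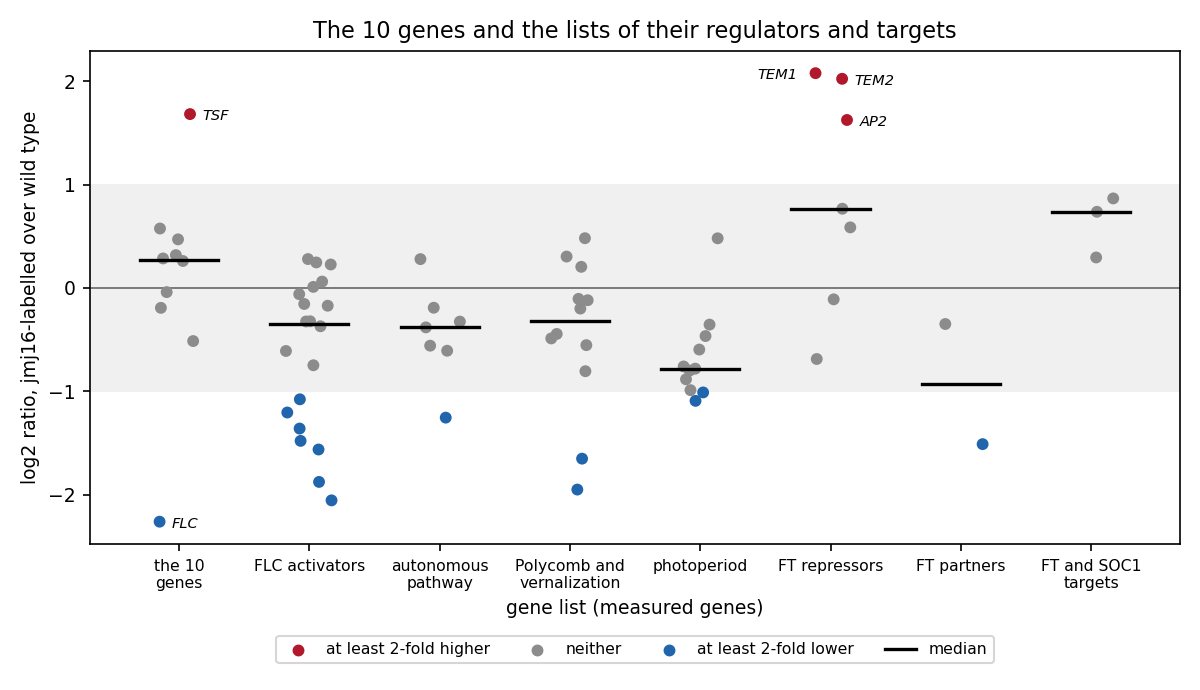
Log2 ratio (jmj16-labelled over wild type) for the 10 genes and for the measured members of 7 lists of their regulators and targets, each point a gene, coloured by its call, with a black bar at the median and a shaded band for differences under 2-fold. TEM1, TEM2 and AP2 are the called points among the FT repressors, and 7 points of the FLC activators are called lower.

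Upstream of FT, 11 photoperiod genes were measured. Of them 2 were lower, 9 were uncalled and 0 were higher, where 10.6% of all measured genes were lower. The median was -0.78, or -0.30 after subtracting the length trend. PHYB, the red light photoreceptor, was 2.13-fold lower (1.77 to 2.58) and SPA1, which works with COP1 to degrade CO protein, 2.02-fold lower (1.83 to 2.22), and neither was called after subtracting the trend. CO, the activator of FT, was not measured, with 5.68 counts in the jmj16-labelled library and 9 in wild type. FTIP1, needed for FT transport from companion cells, was 2.85-fold lower (2.09 to 3.96), with 61 reads in the jmj16-labelled library and 126 in wild type, and was not called after subtracting the trend. FD, the bZIP partner of FT, had a log2 ratio of -0.35 (-0.75 to 0.06).

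Of 10 listed genes downstream of FT and SOC1, 3 were measured and all 3 were called neither. The other 7 were under the minimum of 20 reads. FUL, a MADS-box gene that promotes flowering, had 218 reads in the jmj16-labelled library and 94 in wild type. Its log2 ratio was 0.74 (0.39 to 1.11), and 0.54 after subtracting the length trend. AGL24, the relative of SVP that promotes flowering, had 48 reads in the jmj16-labelled library and 28 in wild type, a log2 ratio of 0.30 (-0.40 to 1.03). AP1 had 0 reads in the jmj16-labelled library and 1 in wild type, and LFY had 0 and 2. None of the 4 other genes of the FT family was measured: BFT, a relative of the floral repressor TFL1, had 1.02 counts in the jmj16-labelled library and 10.6 in wild type, and TFL1 had 0 and 1.

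Markers of other tissues were followed because FLC, SVP and SOC1 are also active in the shoot apex and FT and TSF in the phloem. In bulk leaf RNA, fewer cells of a type and less RNA per cell cannot be told apart. The 4 shoot apex markers summed to 0.0344 TPM in the jmj16-labelled library and 0.101 in wild type, with WUS and CLV3 at 0 in both. Companion cell markers summed to 139 TPM in the jmj16-labelled library and 216 in wild type, and of the 3 measured, AHA3 and FTIP1 were lower and SUC2, with 3319 and 3320 reads, was neither (log2 ratio -0.47, -0.54 to -0.40). None of the 3 was called after subtracting the length trend. Leaf mesophyll markers summed to 18229 TPM in the jmj16-labelled library and 24947 in wild type. All 4 were called neither, with log2 ratios from -0.89 to -0.03. Their median was -0.48, or -0.80 after subtracting the length trend. Of 7 floral organ markers 3 were measured, and all 7 summed to 4.02 TPM in the jmj16-labelled library and 7.79 in wild type. SEP1 was called lower (log2 ratio -4.30), also after subtracting the length trend, and AG (-0.96) and SEP3 (-0.72) were neither. SEP1 had 2.06 counts in the jmj16-labelled library and 34.5 in wild type, SEP2 had 16 and 0, and AP1 was at 0 and 1. The seed storage gene CRA1 had 0 counts in the jmj16-labelled library and 23 in wild type and was called lower, also after subtracting the length trend. The counting interval of its ratio began at 7.97-fold lower. CRC was at 0 in both, and the 2 root markers summed to 0 and 0.0681 TPM. The part of other tissues in the FLC result was not tested.

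Genes on either side of the members were looked at by position alone. Of 14 flanking loci outside the set, 7 were measured: 1 was higher, 2 lower and 4 neither. Over all measured genes 7.22% were higher and 10.6% lower. The length trend was not subtracted for the flanking genes, and a local effect was not tested. Next to FLC, AT5G10150 had 124 reads in the jmj16-labelled library and 213 in wild type and was called lower, with a log2 ratio of -1.25 (-1.58 to -0.93), while AT5G10130 on the other side had 1 and 0 reads. Next to MAF1, AT1G77060 was lower, with a log2 ratio of -1.09 (-1.27 to -0.91) from 422 and 649 reads. BST1, next to MAF5, was called higher from 20 reads in the jmj16-labelled library and 2 in wild type, a log2 ratio of 2.56 (0.81 to 5.99).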

How the data were processed

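Per the file headers, the authors deposited an estimated count for each transcript model, in Salmon's output layout and without normalization, and TPM scaled by effective length and by library. The submitters' processing notes name Salmon, TopHat2, Bowtie2, SAMtools, deepTools and TAIR10. Annotation release, read layout and strandedness were not stated.

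Values were summed per locus and counts rounded. TMM factors were 1.03 (jmj16-labelled) and 0.969 (wild type), from edgeR 4.0.16 in R 4.3.3, used for scaling only. Log2 ratios add 0.5 to each count, with Clopper-Pearson 95% intervals. Reads are not independent molecules, so intervals cover counting error only. Gene names are from RefSeq TAIR10.1 (27445 loci matched). Positions in that table served to find neighbouring and overlapping genes, and none is printed. No sequences were used, and a planned comparison of proteins was not run.

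Members, lists and rules were chosen with earlier results of these data known. Named were all members, JMJ16, up to 4 called genes of each list (with fewer than 2 called, also its 2 most read) and markers by summed level. VIN3, CO, FRI, LFY, VIP4 and single marker or flanking genes were added after their values were seen. With 1 ratio per gene, no gene was named for a pattern like a member's. The calculation was tested on simulated data with counting error alone. Changes were planted only in genes read far more deeply than FLC, TSF and MAF4, so recovery at their depth was not tested. Python 3.11.15, scipy 1.17.1, statsmodels 0.14.6 (lowess, span 0.3) and, for alternative size factors, DESeq2 1.42.0 were used.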

Additional observations from a re-analysis of the deposited data

How the results depend on the processing

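No paired analysis was possible because each genotype had 1 library, and for the same reason no replicate could be left out. The number of members called higher, 1 of 10, became 0 at a fold of 4, with intervals wholly beyond 2-fold and with a minimum of 100 reads. The number called lower, also 1, became 0 under those same minimum and interval rules and from the most abundant transcript alone, where the log2 ratio of FLC was -1.16. Of 7 alternatives of scaling, unit, added count, transcript and length, FLC was called under 6 (-2.59 to -1.16) and TSF under 7 (1.06 to 1.78). TSF has 1 transcript model, so the transcript setting repeats its value, and the added count and the TPM unit keep the counting interval of the scaled counts. None of the other 8 was called under these. FT ranged from -0.05 to 0.38, MAF1 from -0.37 to 0.19, MAF2 from -0.83 to 0.43 and MAF3 from -0.08 to 0.35, each crossing 0. Point ratios of MAF4, MAF5 and SVP stayed above 0 and those of SOC1 below it. Counting intervals included 0 for MAF4 under every setting, for MAF5 under most and for SOC1 with total counts. Summed reads of MAF2 and MAF3 gave -0.27 (-0.51 to -0.04) and of MAF2 to MAF5 -0.06 (-0.25 to 0.13). The length trend was not subtracted from any ratio of summed reads. The sums of MAF1 to MAF3 and of the clade, and MAF5 without its shortest model, were added after seeing the data. Over all measured genes, higher calls were 2821 and lower calls 3355 at a fold of 1.5, 255 and 292 at a fold of 4, 487 and 807 with intervals wholly beyond 2-fold, and 747 and 1199 with a minimum of 100 reads. Lower calls were 1148 after subtracting the length trend and 747 with log2(TPM + 1). Over the 8 lists, 6 genes were higher and 23 lower at a fold of 1.5. Of the 13 lower, the number was 1 at a fold of 4, 7 with intervals wholly beyond 2-fold, 3 after subtracting the length trend and 4 with log2(TPM + 1). Depth limits FLC, TSF and MAF4 most.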
